A study of Mus musculus with 2 samples.

Results

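The collagen genes are the 44 protein-coding genes of the mm10 GENCODE annotation whose symbol is Col, a number, a and a number, out of 21853 protein-coding genes in all. They served as a stromal control in purified blood stem cells. Their promoters, each 1000 bp either side of a transcription start site (TSS), were examined at 92 TSSs in the peak lists of both libraries of the series. The libraries were made by ATAC-seq, in which the Tn5 transposase inserts sequencing adapters into accessible DNA, from primary hematopoietic stem cells, 50000 per library, taken from C57BL/6J animals that were male and 5 to 6 weeks old. The cells are 1 group with 2 biological replicates and carried no treatment or genetic change in the labels. The labels give both replicates separate biosamples but the same donor identifier, so separate animals are not certain. No stromal cells were measured here, so every count is set beside other genes of the same cells.

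Collagens are the main structural proteins of the extracellular matrix. Their chains are folded and hydroxylated in the endoplasmic reticulum, wound into helical trimers, secreted, trimmed by extracellular proteases and cross-linked. Fibroblasts, osteoblasts, endothelial cells and other stromal and epithelial cells make them. Blood stem cells live among such cells in the bone marrow and contact collagen through receptors such as integrins. A peak is a stretch of called accessible DNA. The thresholded list of a replicate holds peaks that passed a test of reproducibility within that library, and its less strict list holds peaks found in both of its pseudoreplicates. Peak lists do not show how deeply a library was sequenced. A gene without a peak is one where none was called, not one shown to be closed.

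Few collagen promoters were open. In the thresholded lists 3 of the 44 genes had a promoter peak in both replicates (6.82%, 95% Wilson interval 2.35 to 18.2), against 41.3% of all protein-coding genes. They were Col1a1, which encodes the main chain of bone and skin fibrils, Col4a5, a basement membrane chain, and Col15a1, a chain of the basement membrane zone. A further 3 genes had one in a single replicate, or 6.82%, against 7.47% of all genes: Col18a1 and Col25a1 in replicate 1 and Col27a1 in replicate 2. The remaining 38 genes had none in either list. Replicate 1 alone gave 5 collagen genes (11.4%, against 46% of all genes), and replicate 2 alone gave 4 (9.09%, against 44.1%). Counted per TSS, 4 of 92 collagen TSSs had a peak in both replicates (4.35%, 1.70 to 10.7), against 37.7% of all TSSs. Other TSSs of like CpG ratio, a measure given below, had one in 31.9% of cases. Wilson intervals here cover the counting of genes or TSSs only, and no test was made because genes are not replicates. Where a background share is said to lie inside or outside an interval, that describes the counts and is not a test.

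The sequences under the strongest thresholded peaks of 5 of these genes are shown because these few open sites are the exceptions in the family and differ in kind. Each is centred on the peak summit in mm10, on the plus strand, which is the sense strand of all 5 genes, and is 151 bases long. That of Col4a5 was cut to 117 bases at the base before its TSS. Col4a5 lay at chrX:141475268-141475384, Col1a1 at chr11:94937142-94937292, Col15a1 at chr4:47303420-47303570, Col25a1 at chr3:130180696-130180846 and Col27a1, from replicate 2, at chr4:63216073-63216223. Capitals mark matches of the motifs named after the sequences.
Col4a5: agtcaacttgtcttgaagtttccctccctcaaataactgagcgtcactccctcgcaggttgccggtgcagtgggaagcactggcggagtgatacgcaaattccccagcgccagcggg
Col1a1: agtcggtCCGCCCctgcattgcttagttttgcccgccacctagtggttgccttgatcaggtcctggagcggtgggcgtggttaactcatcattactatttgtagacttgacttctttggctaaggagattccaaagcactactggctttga
Col15a1: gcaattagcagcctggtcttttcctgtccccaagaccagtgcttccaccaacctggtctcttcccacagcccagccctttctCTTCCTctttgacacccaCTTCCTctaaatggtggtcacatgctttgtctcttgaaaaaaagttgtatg
Col25a1: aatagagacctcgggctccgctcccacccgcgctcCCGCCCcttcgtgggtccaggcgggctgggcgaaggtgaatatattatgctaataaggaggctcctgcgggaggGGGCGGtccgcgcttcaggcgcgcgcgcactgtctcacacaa
Col27a1: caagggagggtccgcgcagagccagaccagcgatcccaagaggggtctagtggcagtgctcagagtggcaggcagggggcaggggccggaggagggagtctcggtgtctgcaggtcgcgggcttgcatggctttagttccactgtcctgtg

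The motifs, searched on both strands, were the ETS core AGGAAG, the RUNX motif TGTGGT, the GATA motif with letters AGATAA, the AP-1 motif TGANTCA, the CCAAT box, the GC box GGGCGG, the TATA box TATAAA and the E-box CAGCTG. The Col15a1 window held 2 ETS cores, read on the other strand as CTTCCT, and no CpG. The Col1a1 window held 1 GC box and 5 CpGs, and the Col25a1 window 2 GC boxes and 16 CpGs. Neither the Col4a5 nor the Col27a1 window matched any of the 8 motifs. The Col4a5 window was cut to 117 bases, so the shares below, from windows of 151 bases, are not a like comparison for it. No match overlapped another. Among 19727 windows of 151 bases at all shared thresholded peaks, 36.1% held the ETS core, 28.9% the GC box, 23.7% the CCAAT box, 19.3% the RUNX motif, 11.5% the E-box, 5.91% the AP-1 motif, 4.34% the GATA motif and 3.15% the TATA box. The 8525 of these windows at promoter peaks, which are the nearer comparison, held the GC box in 54.0%, the CCAAT box in 34.7%, the ETS core in 22.1%, the E-box in 7.54%, the RUNX motif in 7.19%, the AP-1 motif in 2.59%, the TATA box in 1.84% and the GATA motif in 1.72%.

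The 3 genes with a peak in both replicates had it at different kinds of site. At Col4a5 the peak stood just before the gene start, at chrX:141475227-141475472 in replicate 1 and chrX:141475240-141475472 in replicate 2, with summits 42 and 36 bp upstream of the TSS. Its signal values, the scores that the peak caller gave, were 9.63 and 8.39, the 64.2 and 30.2 percentiles of their lists. Col4a6, the neighbouring basement membrane gene on the opposite strand, starts 1309 bp away and had no thresholded promoter peak within 1000 bp. Col4a5 was thus the 1 collagen gene with a thresholded peak over its most 5′ start site itself in both replicates.

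At Col1a1 the peak lay in intron 1. Its intervals were chr11:94936912-94937343 and chr11:94937108-94937567, and its summits stood 993 and 998 bp downstream of the only annotated protein-coding TSS of the gene. The call therefore rested on the width of the promoter window, and it was lost at 500 bp. The signal values were 9.38 in replicate 1 and 8.81 in replicate 2, the 60.9 and 36.7 percentiles. Col1a2, whose chain joins that of Col1a1 in type I collagen, had no thresholded promoter peak. In the less strict lists it had one at chr6:4505154-4505612 and chr6:4505291-4505947, with signal values of 5.68 and 6.61.

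At Col15a1 the peak lay far inside the gene, at an internal TSS that lies 95.6 kb from the first TSS. It covered chr4:47303261-47303850 in replicate 1 and chr4:47303282-47303896 in replicate 2, in intron 33 of the principal transcript. The TSS it reached starts a transcript of 8 exons that runs to the 3′ end region of the gene. Signal values were 6.65 and 8.48, the 16.9 and 31.5 percentiles. The most 5′ TSS of Col15a1 had no peak in any of the 4 replicate lists.

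The 3 genes called in a single replicate had their peak in the less strict list of the other as well. Col18a1, which encodes the precursor of the anti-angiogenic fragment endostatin, had a peak over its most 5′ TSS with 6.86 in the thresholded list of replicate 1 and 7.34 in the less strict list of replicate 2. Col25a1, a transmembrane collagen of neurons, had 7.18 in replicate 1 and 6.14 in the less strict list of replicate 2, with summits 120 and 186 bp upstream of the TSS of its protein-coding transcripts. Col27a1, a fibrillar collagen of cartilage, had 7.78 in replicate 2 and 5.65 in the less strict list of replicate 1, both in intron 1. So 50% of the 6 collagen genes with any thresholded promoter peak had it in both replicates, against 84.7% of the 10662 protein-coding genes with any.

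Collagen promoter peaks were weaker than those of most genes with a promoter peak. In replicate 1 the strongest peaks of the 5 genes ran from 6.65 to 9.63 with a median of 7.18, against a median of 9.94 over 10040 other genes. In replicate 2 the 4 genes ran from 7.78 to 8.81 with a median of 8.44, against 10.7 over 9643 other genes. Each collagen value lay under the median of the other genes of its list. So did the strongest thresholded promoter peak of every blood stem cell marker, listed further below, that had one. Those ran from 4.68 (Lyl1) to 9.39 (Ptprc) in replicate 1 and from 5.27 (Runx1) to 9.91 (Ptprc) in replicate 2. Low signal is thus not particular to the collagens, and these medians were not matched for CpG ratio. Among the strongest 50% of the peaks of each list 0 of the 44 collagen genes had a promoter peak in both replicates, against 25.6% of other genes and 27.4% of genes of like CpG ratio.

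**Figure D1:**
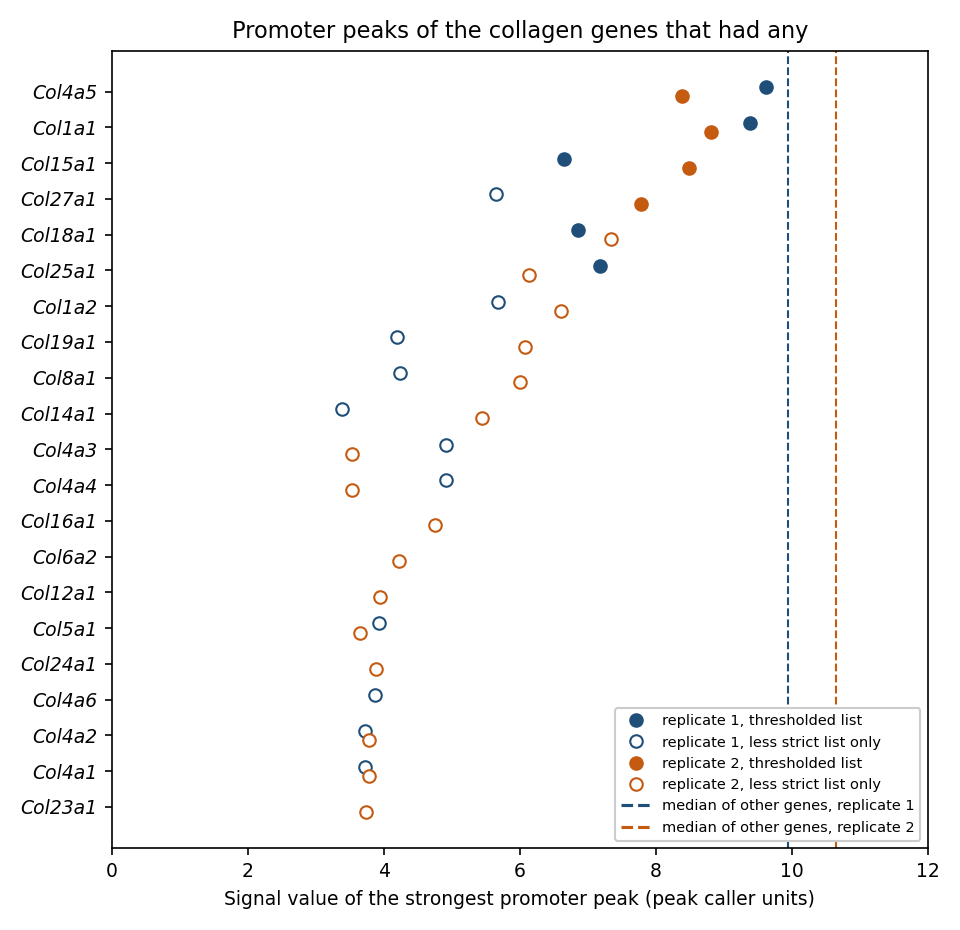
Signal value (horizontal axis, peak caller units) of the strongest promoter peak of the 21 collagen genes with a promoter peak in any replicate list, in replicate 1 (blue) and replicate 2 (orange). Filled points are in the thresholded list, open points in the less strict list only, and dashed lines are the medians of other genes in the thresholded lists (9.94 and 10.7), to the left of which every collagen value lies.

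The less strict lists showed weak peaks at more of the family. There 15 of 44 genes had a promoter peak in both replicates (34.1%, Wilson interval 21.9 to 48.9), against 58% of all protein-coding genes, and 6 more had one in a single replicate. Of the 21 collagen genes with any less strict promoter peak 71.4% had it in both replicates, against 91.4% of 13860 such protein-coding genes. Replicate 1 alone gave 16 genes (36.4%), against 60.2% of all genes, and replicate 2 alone gave 20 (45.5%), against 61.2%. Per TSS, 20 of 92 had a peak in both (21.7%), against 53.3% of all TSSs and 46.4% of other TSSs of like CpG ratio. The median signal of the collagen genes was 4.91 in replicate 1 and 5.09 in replicate 2, against 8.81 and 9.24 for other genes. The series-level thresholded and conservative lists, made from both libraries, each gave 7 collagen genes (15.9%), against 51.9% and 54.7% of all genes. These 7 were Col1a1, Col1a2, Col4a5, Col15a1, Col18a1, Col25a1 and Col27a1 in either list.

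Basement membrane chains accounted for 5 of the 15 genes called in the less strict lists. These are the network-forming type IV collagens, which lie as head-to-head gene pairs that share a start region. The class has 6 genes, and of them only Col4a5 had a promoter peak in both thresholded lists (16.7%, Wilson interval 3.01 to 56.4), against 48.1% of genes of like CpG ratio. The less strict share was 83.3% (43.6 to 97.0), against 66.7%, so both background shares lay inside the intervals. Col4a3 and Col4a4, whose most 5′ TSSs lie 127 bp apart, shared a peak with signal values of 4.91 and 3.53, so they are not separate observations. Col4a1 and Col4a2, whose TSSs lie 21 bp apart, also shared theirs, at 3.72 and 3.78. Its interval was chr8:11312488-11312884 in replicate 1 and chr8:11313568-11313967 in replicate 2, and these do not overlap. Col4a6 had a less strict peak in replicate 1 only, at 3.87.

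Fibrillar collagens, which bear the tensile load of tissues, had 1 of 11 genes open in the thresholded lists and 4 of 11 in the less strict ones: Col1a1, Col1a2, Col27a1 and Col5a1. The first share was 9.09% (Wilson interval 1.62 to 37.7), against 48.7% of genes of like CpG ratio, and the second 36.4% (15.2 to 64.6), against 68.1%. Col5a1, which encodes a chain that regulates fibril diameter, reached 3.93 and 3.64 there. Col3a1, a major fibrillar chain of vessels and skin, had no promoter peak in any of the 4 replicate lists. Col2a1, Col5a2, Col5a3, Col11a1 and Col11a2 had none either, and Col24a1 had a less strict one in replicate 2 only, at 3.88.

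FACIT collagens, which decorate the surface of fibrils, had no thresholded promoter peak in either replicate at any of 9 genes, where 39.6% of genes of like CpG ratio had one in both replicates (Wilson upper bound 29.9). In the less strict lists 2 of them did in both replicates (22.2%, 6.32 to 54.7, against 56.1%), Col19a1 at 4.20 and 6.07 and Col14a1 at 3.38 and 5.44. Col12a1 and Col16a1 had one in replicate 2 only, at 3.94 and 4.75. The beaded filament and related genes, among them type VI collagen of the pericellular matrix, had none in both replicates of either list at 8 genes. The shares for genes of like CpG ratio were 29.3% in the thresholded lists, inside the Wilson interval of 0 to 32.4, and 43.6% in the less strict ones, above it. Col6a2 had a less strict peak in replicate 2 only, at 4.23, and Col6a1 had none. Of the 4 transmembrane genes only Col25a1 was called in both less strict lists (25%, 4.56 to 69.9, against 65.2%), and Col23a1 reached 3.73 in that of replicate 2. Both multiplexin genes, Col15a1 and Col18a1, were called in both less strict lists (Wilson interval 34.2 to 100), against 78.2% of genes of like CpG ratio, a share inside the interval. The short-chain collagen gene Col8a1 was called in both less strict lists at 4.23 and 6.01, whereas Col8a2, the growth plate gene Col10a1 and the anchoring fibril gene Col7a1 were not called in any. The Col8a1 summits stood 1034 and 1029 bp downstream of its TSS, so only the peak edge reached the promoter window. That peak was also counted as a distal peak of Col8a1 in the less strict lists. For the 3 short-chain genes the less strict share was 33.3% (6.15 to 79.2), against 69.7% of genes of like CpG ratio, also inside the interval. In all, 23 collagen genes had no promoter peak in any of the 4 replicate lists. The other 21 of 44 had one in at least 1 less strict list, as had 13860 of all 21853 protein-coding genes.

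The collagen counts were also low beside genes of like CpG content in the middle and high tertiles. CpG content was measured as the observed to expected CpG ratio in the 1000 bp either side of the most 5′ TSS, and genes were split into tertiles of it. Single TSSs were matched by their own ratio, in tertiles over all TSSs. Of the collagen genes 10 fell in the low tertile, 25 in the middle and 9 in the high one, and their median ratio was 0.365 against 0.479 for other genes. In the low tertile 0 of 10 had a thresholded promoter peak in both replicates, against 9.25% of all such genes. In the middle tertile 2 of 25 did (8%, Wilson interval 2.22 to 25.0), against 49.3%. In the high tertile 1 of 9 did (11.1%, 1.99 to 43.5), against 65.4%. Weighted by the tertiles of the collagen genes, 43.6% of other genes were open, which would be 19.2 genes of 44 where 3 were counted. The upper Wilson bounds lay under the background share in the middle and high tertiles and above it in the low one. These bounds take genes as independent, which paired genes such as Col4a1 and Col4a2 are not, so this is not a test.

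The less strict lists gave calls in the same tertiles. The counts were 0 of 10 in the low tertile, against 17.5% of all such genes, and 9 of 25 in the middle one (36.0%, 20.2 to 55.5), against 69.6%. In the high tertile 6 of 9 were called (66.7%, 35.4 to 87.9), against 86.8%, a share inside the Wilson interval, as is that of the low tertile (0 to 27.8). All 15 collagen genes called in both less strict lists thus lay in the middle and high tertiles. The matched share over the 3 tertiles was 61.3%, or 27.0 genes. By the highest ratio over the TSSs of a gene the matched share of the thresholded lists was 38.1%, and with 10 groups of the ratio in place of 3 it was 38.8%.

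**Figure D2:**
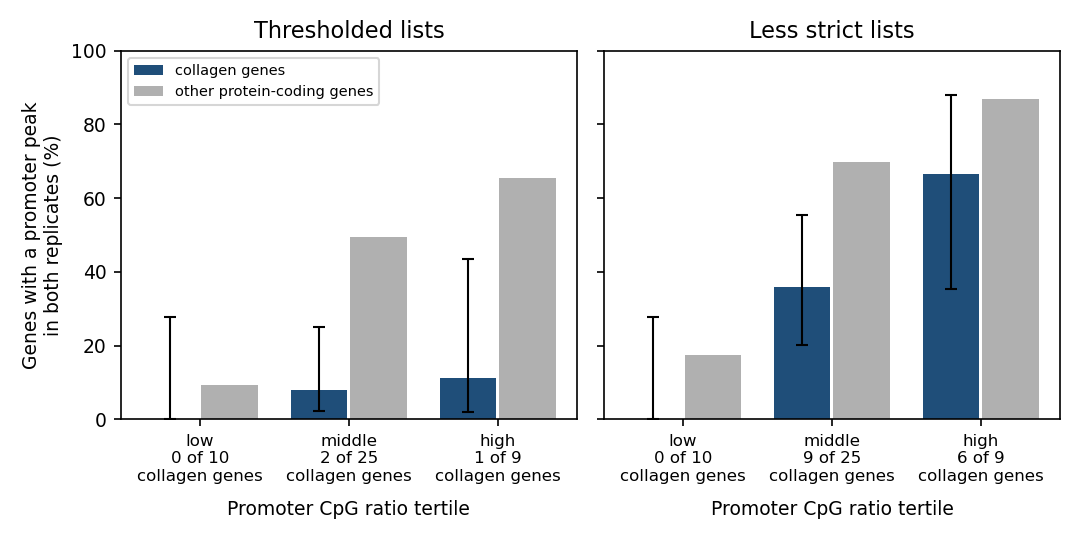
Percent of genes with a promoter peak in both replicates (vertical axis) by tertile of the promoter CpG ratio, for the 44 collagen genes (blue, with 95% Wilson intervals) and other protein-coding genes (grey), in the thresholded (left) and less strict (right) lists. Collagen bars lie under the grey bars in every tertile, at 0, 2 and 1 genes on the left and 0, 9 and 6 on the right.

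The collagen genes were long. Their median length was 114 kb against 17.3 kb, and both sets had a median of 2 TSSs. RefSeq promoter sequences (GRCm38.p6) were matched by symbol for 35 of the 44 genes. In the 250 bases before the start a GC box stood in 21 of 35 collagen genes (60.0%) against 47.5% of 16480 other genes, a CCAAT box in 37.1% against 39.2% and an ETS core in 28.6% against 31.9%. A TATA box on the sense strand 45 to 16 bases before the start stood in 1 of 35, Col10a1, against 3.12% of other genes. These are letter matches and say nothing of the factors.

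Genes that fold and modify collagen inside the cell stood near their background. Of 18 such genes 9 had a thresholded promoter peak in both replicates (50%, Wilson interval 29.0 to 71.0), against 41.3% of all genes and 60.1% of genes of like CpG ratio. The highest were Mia3, which helps to load procollagen for export, at 13.5 and 14.1, the prolyl 3-hydroxylase gene P3h1 at 12.5 and 14.5, Colgalt1, a collagen galactosyltransferase, at 13.2 and 13.9, and Ppib, a prolyl isomerase of the endoplasmic reticulum, at 12.6 and 12.4. The prolyl hydroxylase genes P4ha1 and P4hb were also open, at 10.4 and 8.28 and at 10.6 and 10. Several of these enzymes act on other secreted proteins too. In the less strict lists 13 of the 18 genes were called (72.2%, 49.1 to 87.5), against 81.0% of genes of like CpG ratio. Both shares for genes of like CpG ratio thus lay inside the intervals. Serpinh1, the collagen-specific chaperone, had no promoter peak in any replicate list, nor had Fkbp10, P3h4, P4ha2 or P4ha3.

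Genes acting on collagen outside the cell are those for processing, cross-linking and breakdown. Of 13 genes for processing and cross-linking 1 was open in both thresholded lists (7.69%, 1.37 to 33.3), against 53.7% of genes of like CpG ratio. It was Adamts3, a procollagen N-proteinase, at 8.73 and 10.3. Of the 13, 7 were called in the less strict lists (53.8%, 29.1 to 76.8), against 73.5%, a share inside the interval. Of the lysyl oxidase genes, whose enzymes cross-link collagen, none had a thresholded promoter peak in either replicate. Loxl1 and Loxl3 had less strict peaks in both replicates, Lox in replicate 1 only and Loxl4 in replicate 2 only. Of the 7 breakdown genes only Fap, a serine protease of activated fibroblasts, was open in both thresholded lists, at 11.03 and 16.2. That is 14.3% (2.57 to 51.3), against 28.7% of genes of like CpG ratio, and in the less strict lists 3 of 7 were called (42.9%), against 42.3%, so the breakdown genes stood near their background.

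Collagen receptors stood near their background. Of 11 genes 4 were open in both thresholded lists (36.4%, 15.2 to 64.6), against 41.3% of genes of like CpG ratio. These were Lair1, an inhibitory receptor of leukocytes, at 11.1 and 12.6, the integrin chains Itga2 at 7.96 and 8.52 and Itgb1 at 5.53 and 6.17, and the adhesion receptor Adgrg1 at 7.37 and 6.87. The discoidin receptor genes Ddr1 and Ddr2 and the platelet receptor gene Gp6 had no thresholded promoter peak in either replicate.

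Markers of cell types were read beside these counts. Of 15 blood stem cell markers 10 were open in both thresholded lists (66.7%), among them Kit, Cd34, Meis1 and Hlf, against 38.6% of genes of like CpG ratio. The less strict lists called 14 (93.3%), against 54.5%. Of 5 megakaryocyte markers 4 were open in the thresholded lists, against 17.2% of genes of like CpG ratio. Of 18 stromal and fibroblast markers 1 was (5.56%), the pericyte receptor gene Pdgfrb at 7.18 and 8.60, against 37.3% of genes of like CpG ratio. The less strict lists called 5 (27.8%), against 53.2%. Pdgfra, Postn and Fn1 had a thresholded peak in replicate 2 only. Dcn, Lum, Prrx1, Twist1, Twist2, Lepr and Cxcl12 had no promoter peak in any replicate list. Of 8 endothelial markers only Cdh5 was open in both thresholded lists (12.5%, 2.24 to 47.1), against 36.3% of genes of like CpG ratio. Tek had a thresholded peak in replicate 1 only, at 6.93, and Emcn in replicate 2 only, at 8.18. In the less strict lists 6 were open (75%, 40.9 to 92.9), against 52.2%, and both background shares lay inside the intervals. Of 7 bone and cartilage markers 0 were open in the thresholded lists, against 31.03% of genes of like CpG ratio, a share inside the Wilson interval (0 to 35.4). Runx2 alone of the 7 was called in the less strict lists, against 44.7%. The part of stromal or endothelial cells in the collagen peaks was not tested.

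**Figure D3:**
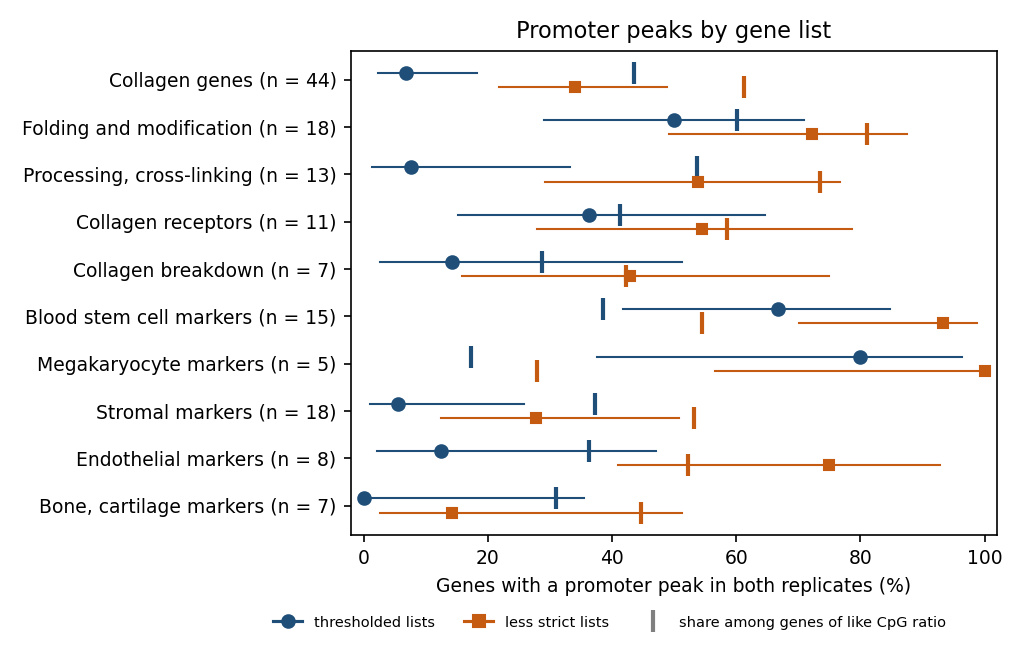
Percent of genes with a promoter peak in both replicates (horizontal axis) for the collagen genes, lists of their pathway and cell type markers, in the thresholded (blue circles) and less strict (orange squares) lists, with 95% Wilson intervals as lines and the share among genes of like CpG ratio as vertical ticks. In the thresholded lists the collagen genes lie at 6.82% (tick at 43.6%), processing genes at 7.69% (53.7%), folding genes at 50% (60.1%) and blood stem cell markers at 66.7% (38.6%).

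Peaks away from promoters were counted next. A distal peak is a replicate 1 peak that overlaps a replicate 2 peak, with its summit over 1000 bp from every protein-coding TSS. It was counted for all genes that had a TSS no more than 50 kb from the summit. In the thresholded lists 18 of 44 collagen genes had at least 1 (40.9%), against 43.9% of all genes. The mean was 0.545 per collagen gene (SD 0.761 over genes), against 0.717 (SD 1.04) over other genes. In the less strict lists 35 of 44 had at least 1 (79.5%), against 74.2%, with a mean of 2.43 against 2.36. The order of the means thus turned with the list. For the next split a promoter peak in either thresholded list was enough. Of the 44 genes 14 had a thresholded distal peak and no promoter peak, 4 had both kinds, 2 had a promoter peak only and 24 had neither. The split was not made over all protein-coding genes, of which 10662 of 21853 had such a promoter peak, so it is not read as a collagen trait.

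The 24 distal peaks comprised 11 in introns of the collagen gene itself, 12 in intergenic sequence and 1, near Col10a1, in an intron of Nt5dc1. In 17 of the 24 cases the collagen gene had the nearest TSS. These location counts were not made over all shared distal peaks or for genes of like length, so they are not read as collagen traits. Their median signal in replicate 1 was 8.53, against 8.71 for all shared distal peaks. Col23a1, a transmembrane collagen, had 3, the most in the family, and the strongest, in an intron at chr11:51565060-51565386 with signal values of 13.4 and 14.4, was the 1 peak of the 24 above the 90th percentile of replicate 1. A second intronic peak of Col23a1 at chr11:51539652-51539978 reached 10.6 and 12.1. The third lay nearer to Nhp2.

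A further 4 genes had 2 distal peaks each. Col16a1 had one 2.01 kb upstream of its start, at chr4:130045670-130046099 with 11.5 and 12.9, and one in an intron at 8.66 and 8.58. Col9a2, a cartilage gene, had one in an intron 1.73 kb downstream of its TSS, at 9.05 and 8.52, and one nearer to Smap2. Col19a1 had one in an intron at chr1:24572540-24573055 with 10.6 and 10.8, and one nearer to Lmbrd1. Col5a3 had one in an intron at chr9:20794260-20794614 with 8.90 and 12.3, and one nearer to A230050P20Rik. The other 13 genes had 1 each.

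Among the type I genes the distal peaks were intergenic. That of Col1a2 lay 20.4 kb upstream of its most 5′ TSS, at chr6:4484195-4484541 with 8.39 and 11.6. That of Col1a1 lay 42.9 kb downstream of its TSS, at chr11:94978925-94979310 with 12.2 and 13.2, and closer to the start of Sgca. Col4a1 had an intronic peak at chr8:11260170-11260577 with 8.03 and 12.04, Col6a1 one 9.04 kb upstream with 8.04 and 8.98, and Col18a1 one in an intron with 7.77 and 8.86. Just outside the promoter window stood the peak of Col13a1, 1.52 kb upstream of its TSS with 7.09 and 8.75. Col3a1, Col4a2 and Col5a1 had no thresholded distal peak. Col3a1 had a less strict one in an intron 2.60 kb downstream of its TSS, at chr1:45314014-45314247 with 8.32 and 11.7.

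**Figure D4:**
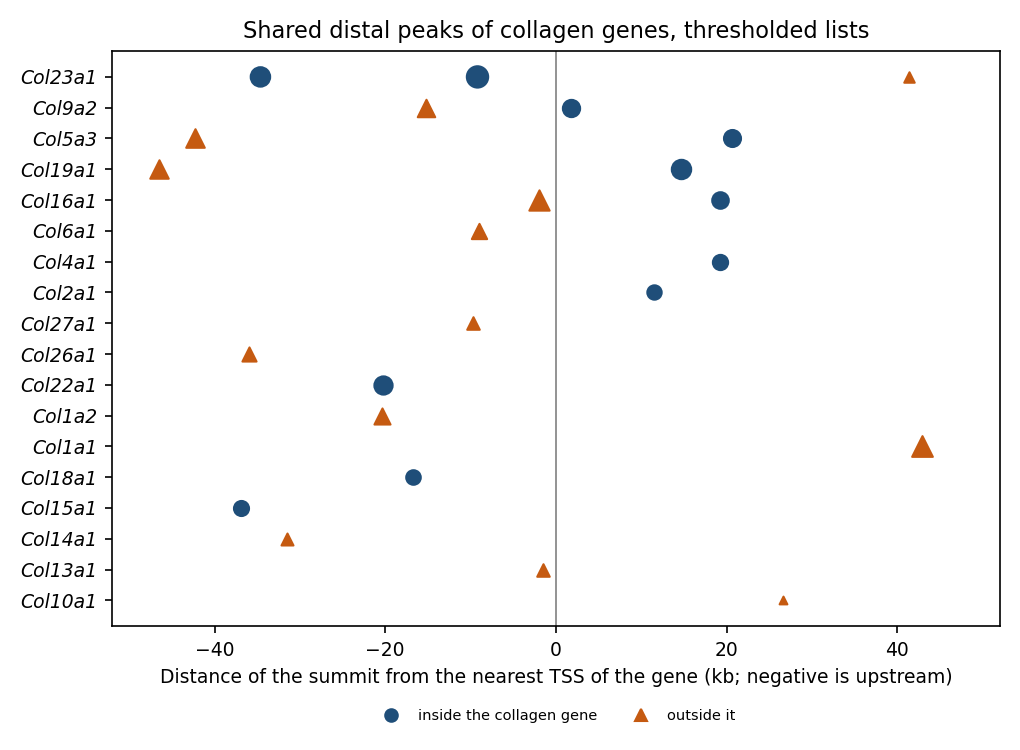
Position of the 24 shared distal peaks of the thresholded lists relative to the nearest TSS of their collagen gene (horizontal axis, kb, negative upstream), 1 row per gene, with larger symbols for higher replicate 1 signal percentiles. Blue circles lie inside the collagen gene (11 peaks) and orange triangles outside it (13 gene and peak pairs), with Col23a1 alone at 3 peaks.

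Because collagen genes are long, their bodies reach past the 50 kb window. Shared distal peaks of the thresholded lists numbered 19 in the 5.37 Mb of collagen gene bodies, or 3.54 per Mb, against 5.19 per Mb in other genes and 4.62 per Mb in the 2458 other genes over 100 kb long. All 19 were in introns, and 8 of them lay over 50 kb from every TSS of the gene. Col28a1 held 3 of these 8, at signal values of 6.70 to 8.19 in replicate 1, Col25a1 held 2, and Col8a1, Col19a1 and Col24a1 held 1 each. In the less strict lists the densities were 14.4 per Mb in collagen genes, 17.4 per Mb in other genes and 15.4 per Mb in other genes over 100 kb long.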

How the data were processed

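ATAC-seq peak lists of 2 replicates were used, per the labels in mm10 and from a uniform pipeline. Aligner and peak caller versions are not given in the sources. Deposited lists give a signal value and a −log10 q-value per peak, assigned by the authors' pipeline. Per the deposited file notes each replicate list derives from 1 library and the series-level lists from both. Intervals listed once per summit were counted once, at the strongest summit, which left 25141 and 24495 thresholded and 62918 and 64843 less strict peaks.

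Genes and TSSs came from protein-coding transcripts of GENCODE M21, whose build is that of the files. A peak was assigned at an overlap of at least 1 bp. Counts were set beside those of other genes, of the same CpG tertile where stated, without a test. Every peak summit over a collagen promoter had a 31-base sequence that occurs 1 time in the genome. Only promoter calls at the most 5′ TSS were tested on simulated peaks, at genes with no TSS of another gene nearby. Calls over all TSSs and distal calls were not. Members, gene lists and alternatives were chosen with earlier results of these data known. All collagen genes were accounted for; named with values were those with a promoter peak, the 6 with the most distal peaks (the sixth place is tied at 1 peak) and 8 genes fixed by name. Alternatives covered lists, windows, TSS sets and single replicates. Python 3.11.15, pandas 2.3.3 and scipy 1.17.1 were used.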

Additional observations from a re-analysis of the deposited data

How the results depend on the processing

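The collagen genes lay below other genes in promoter peaks under all 14 alternatives tried for the gene count, all 5 for the TSS count and all 6 for the CpG-matched share. The number of collagen genes open in both replicates was 3 and became 15 with the less strict lists, 7 with the series-level thresholded list, 7 with the conservative list, 0 with the strongest 50% of peaks and 7 with promoters of 2000 bp either side, and 4 to 5 with a replicate left out. The TSS count of 4 became 20 with the less strict lists and 11 at 2000 bp. The matched share of 43.6% became 38.1% by the highest ratio over TSSs, 38.8% with 10 groups of the ratio, 61.3% with the less strict lists, 27.4% with the strongest 50% of peaks, and 46.7% to 48.4% with a replicate left out. The mean number of distal peaks of 0.545 became 0.273 within 20 kb, 1.18 within 100 kb, 0.386 by nearest gene, 2.43 with the less strict lists, 0.227 with the strongest 50% and 0.864 to 0.886 with a replicate left out. Collagens were lower than other genes in 5 of these 7 means, and higher by nearest gene and with the less strict lists; the cause was not tested. The other alternatives gave 2 or 3 genes; those using all transcript types and leaving out the X chromosome were chosen after seeing the data. No paired analysis was possible because there is 1 group. Depth is unknown, so weak peaks below a list's threshold cannot be told from none.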

Other observations

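The genes next to the collagens stood near their background. For each collagen gene the protein-coding gene with the TSS nearest to its most 5′ one, other than a collagen, was taken, at a median distance of 84.2 kb. These 39 genes had a promoter peak in both thresholded lists in 22 cases (56.4%, 95% Wilson interval 41.0 to 70.7), against 41.4% of the remaining genes and 51.1% of genes of like CpG ratio. In the less strict lists 29 did (74.4%, 58.9 to 85.4), against 70.0% of genes of like CpG ratio. Both shares for genes of like CpG ratio lay inside the intervals. The median distance is beyond the 50 kb distal window, and whether the region bears on the collagen count was not tested.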
